A study of Homo sapiens with 10 samples.

Results

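JUNB, IER3 and PLK3 are 3 immediate early or stress-responsive genes, chosen by name from 14884 named genes because an earlier analysis of the same arrays had found them lower in clones that overexpress CENPU. Each gene was represented by its row of highest mean over the 10 clones. The clones came from PC-3, an established human line from a prostate cancer metastasis, and every clone had received a lentiviral vector and blasticidin selection. In 5 clones (numbers 1, 4, 5, 7 and 13) the vector carried CENPU, a centromere protein gene, and in 5 control clones (numbers 1 to 5) it was empty. The sources used here do not give the promoter that drives CENPU in the vector, and the labels name no treatment. Each clone was measured on 1 array, and a clone descends from a single cell. Because the difference between the groups chose these genes, their values in that comparison are given as a description, without a test.

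Immediate early genes are transcribed within minutes of a growth factor, cytokine or stress signal, without new protein synthesis, from promoters bound by serum response factor, CREB and NF-kB proteins. Their mRNAs are short-lived, as AU-rich elements recruit decay factors, and many of their products feed back on the kinases that induced them. JUNB encodes a basic leucine zipper subunit of the AP-1 transcription factor, in which it pairs with FOS proteins and can oppose JUN. IER3, also called IEX-1, encodes a short-lived protein that acts on cell survival and ERK signalling, and PLK3 encodes a polo-like kinase of the stress and DNA damage response.

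JUNB lies on chromosome 19 from 12791486 to 12793315, IER3 on chromosome 6 from 30743199 to 30744547, and PLK3 on chromosome 1 from 44800377 to 44805990, in the RefSeq annotation of GRCh38.p14. The sources used here do not give a build for the array, and these positions place the genes and not the probes. RefSeq promoter entries matched 2 of the 3 genes, JUNB and PLK3, by gene ID. The 250 bases before each start are printed 5′ to 3′ on the gene's strand, because JUNB and PLK3 deviated together among the clones, and beside them those of JUN, the paralogue of JUNB, whose groups overlapped. They are chr19:12791236-12791485 (plus strand) for JUNB, chr1:44800127-44800376 (plus strand) for PLK3 and chr1:58784048-58784297 (minus strand) for JUN. Capitals mark matches on either strand to 4 short sequences: the TATA box as TATAAA, the box read by nuclear factor Y as CCAAT, the box read by SP1 proteins as GGGCGG, and the core of a cyclic AMP response element as TGACG.
JUNB: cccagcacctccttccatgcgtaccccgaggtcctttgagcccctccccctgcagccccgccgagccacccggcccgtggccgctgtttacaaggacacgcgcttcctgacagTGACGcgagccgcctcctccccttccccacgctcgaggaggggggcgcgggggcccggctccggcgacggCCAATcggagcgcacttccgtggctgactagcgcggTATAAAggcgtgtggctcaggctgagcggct
PLK3: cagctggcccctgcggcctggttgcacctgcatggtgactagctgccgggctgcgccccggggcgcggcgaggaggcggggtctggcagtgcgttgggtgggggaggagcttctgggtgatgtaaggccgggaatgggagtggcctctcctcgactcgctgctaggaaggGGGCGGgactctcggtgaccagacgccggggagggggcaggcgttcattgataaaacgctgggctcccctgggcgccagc
JUN: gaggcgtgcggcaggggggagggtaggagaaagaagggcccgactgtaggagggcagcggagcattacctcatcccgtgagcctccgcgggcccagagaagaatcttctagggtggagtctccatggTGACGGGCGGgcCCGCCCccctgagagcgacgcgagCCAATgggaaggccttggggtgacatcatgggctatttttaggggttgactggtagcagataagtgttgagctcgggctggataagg

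The JUNB promoter held TATAAA from 31 bases before the start, a sequence found in 8.14% of the 10749 promoters of named genes with an entry, taking the first entry of each. It also held CCAAT from 67 bases before the start (34.3% of promoters) and TGACG from 137 bases (26.2%). PLK3 held none of these and had GGGCGG from 80 bases before the start, which 57.8% of promoters hold. JUN shared CCAAT and TGACG with JUNB, lacked TATAAA, and had GGGCGG and its reverse complement, the first overlapping TGACG. TGACGTCA (2.34% of promoters), TGACTCA or TGAGTCA (3.30%), the CArG box (1.18%) and the NF-kB site (11.2%) had 0 matches in these 3 windows. The windows were 70.8% G or C in JUNB, 70.0% in PLK3 and 62.0% in JUN, against a median of 62.8% over the 10749 promoters. JUNB and PLK3 thus shared a high GC content but none of the motifs searched.

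The transgene was read first as a check of the labels. CENPU lay at 8.70 to 9.84 on the log2 scale in CENPU clones and at 5.78 to 6.56 in controls, which is 3.08 apart on average (SE 0.20, limma adjusted p = 2.89e-05). The deposited table held 53617 rows, with array medians of 4.62 to 4.76 on the log2 scale. Pearson correlations between arrays over the 16098 named rows were at least 0.955 within the CENPU group and 0.977 within the controls. Of the defining markers fixed for the cell type, the epithelial KRT18, KRT19 and HOXB13 averaged 10.7, 10.7 and 11.1, and KRT8 and EPCAM 6.75 and 6.43. The luminal prostate markers KLK3 and KLK2 were at 5.59 each, and DCN of fibroblasts and CD14 of monocytes were at 2.77 and 4.18. The endothelial PECAM1 and VWF were at 5.24 and 4.44, with PECAM1 at up to 6.21 in a CENPU clone. Of the 24 markers 11 were measured, and PTPRC and COL1A1 were among those not analysed here. Within the epithelial list, 1 of 5 measured markers passed in limma (HOXB13, 0.42 higher in CENPU clones), beside 10.1% of all genes, and the mean of the list was 8.995 to 9.62 in CENPU clones and 8.83 to 9.21 in controls. None of the 6 measured luminal markers or markers of other lineages passed in limma, and 0 of them had an unadjusted p under 0.05, beside 4147 of all 14884 genes.

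JUNB had the largest difference of the 3 genes. In CENPU clones its log2 value was 9.56 (clone 1), 9.70 (4), 8.97 (5), 9.66 (7) and 9.38 (13). In control clones it was 9.95 (clone 1), 10.65 (2), 10.93 (3), 10.53 (4) and 10.17 (5). Every CENPU clone lay below every control clone, with a gap between CENPU 4 and control 1 that was narrower than the spread within either group. The means were 9.45 ± 0.30 (SD, n = 5) and 10.45 ± 0.39 (SD, n = 5), which puts JUNB 1.99-fold lower in CENPU clones (log2 difference -0.99, SE 0.19). CENPU 5 was the lowest clone and control 3 the highest.

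**Figure D1:**
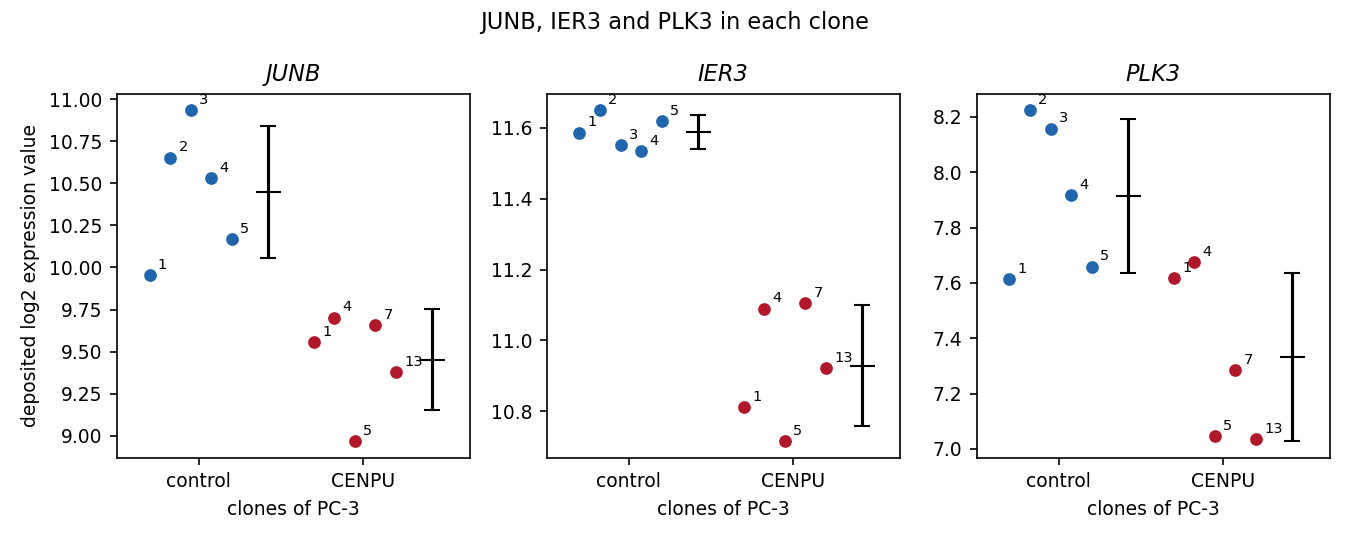
Deposited log2 expression values of JUNB, IER3 and PLK3 in each clone (points, with clone numbers), by group; the black marks give the group mean and the bars 1 SD over 5 clones, and each panel has its own axis. The groups do not overlap for JUNB (9.70 at most in CENPU clones, 9.95 at least in controls) and IER3 (11.1 and 11.5), whereas for PLK3 CENPU 1 and 4 lie among the controls.

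IER3 was the most uniform of the 3 in the controls. Its brightest row read 10.81 (clone 1), 11.09 (4), 10.72 (5), 11.11 (7) and 10.92 (13) in CENPU clones. The controls read 11.59 (clone 1), 11.65 (2), 11.55 (3), 11.53 (4) and 11.62 (5). The groups did not overlap, and the 5 controls lay within a band much narrower than that of the CENPU clones. The means were 10.93 ± 0.17 (SD, n = 5) and 11.59 ± 0.05 (SD, n = 5), so IER3 was 1.58-fold lower in CENPU clones (log2 difference -0.66, standard error 0.10). CENPU 5 was again the lowest clone.

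The platform table assigned 11 rows to IER3, all with the same gene ID, and they fell into 4 distinct sets of values. Besides the brightest row, 4 rows with identical values had a CENPU mean of 10.92 ± 0.17 (SD, n = 5) and a control mean of 11.57 ± 0.04 (SD, n = 5), a log2 difference of -0.65. A further row had means of 10.44 ± 0.27 (SD, n = 5) and 11.22 ± 0.05 (SD, n = 5), a difference of -0.78. The other 5 rows, identical to one another, had means of 6.85 ± 0.21 (SD, n = 5) and 6.86 ± 0.20 (SD, n = 5). They differed by -0.01 (SE 0.13), so the rows named IER3 split into 6 bright rows that were lower in CENPU clones and 5 dim rows whose groups overlapped. Rows with identical values are 1 measurement. Averaging all 11 rows would give a log2 difference of -0.37 for IER3. In RefSeq the long non-coding gene IER3-AS1 overlaps IER3 by 475 bases, and what the dim rows detect was not tested.

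**Figure D2:**
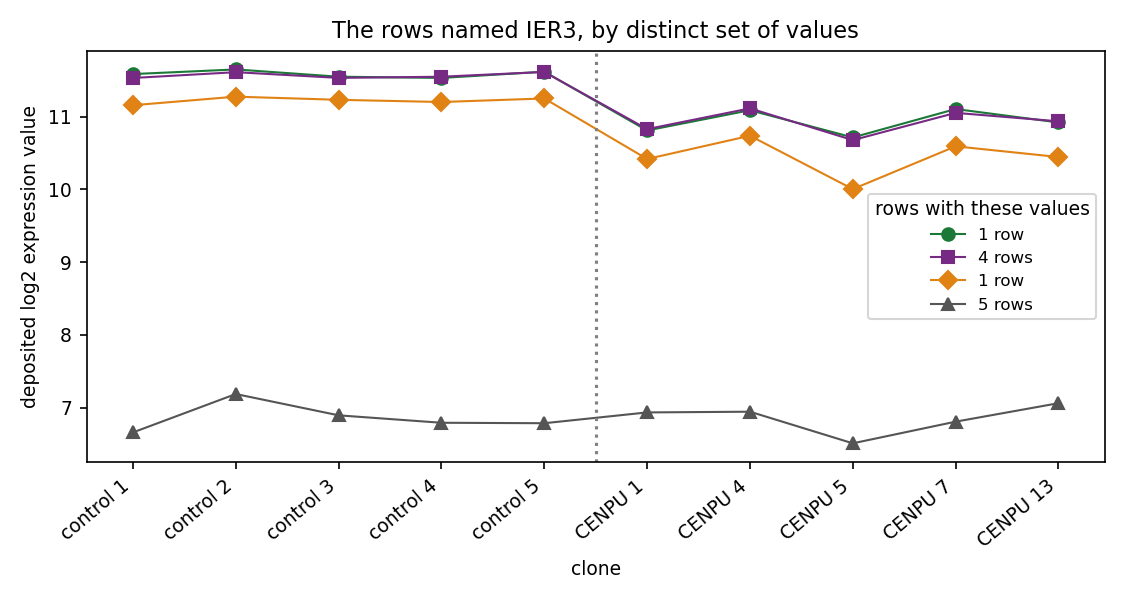
Deposited log2 values of the 11 rows named IER3 in the 10 clones, drawn as 4 lines, 1 for each distinct set of values, with the number of rows that share it; the dotted line parts control from CENPU clones. The 3 upper lines, for 6 rows, step down in the CENPU clones, and the lowest line, for 5 rows, stays between 6.51 and 7.19 in both groups.

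PLK3 had the smallest difference, and its groups overlapped. The CENPU clones read 7.62 (clone 1), 7.67 (4), 7.05 (5), 7.28 (7) and 7.04 (13). The controls read 7.61 (clone 1), 8.22 (2), 8.16 (3), 7.92 (4) and 7.66 (5). CENPU 1 and CENPU 4 were above control 1, and CENPU 4 was also above control 5, so the difference came from CENPU 5, 7 and 13 on one side and controls 2, 3 and 4 on the other. The means were 7.33 ± 0.30 (SD, n = 5) and 7.91 ± 0.28 (SD, n = 5), and the log2 difference was -0.58 (standard error 0.17), or 1.498-fold.

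At an adjusted p under 0.05 in limma, 10.1% of the 14884 genes passed, 5.31% higher and 4.79% lower in CENPU clones. All 3 genes were in the lower group, and they were chosen for it, so nothing is read from this count. Without 1 clone at a time, the log2 difference was -1.12 to -0.87 for JUNB, -0.70 to -0.61 for IER3 and -0.67 to -0.51 for PLK3. Groups that did not overlap were found for 9.73% of genes, 5.19% with the CENPU clones lower, and for 2 of these 3, JUNB and IER3. Without control 2, CENPU 7 and CENPU 13, which the earlier analysis had singled out, the log2 differences in the other 7 clones were -0.99 for JUNB, -0.70 for IER3 and -0.39 for PLK3.

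Within their groups, JUNB and PLK3 were mostly high and low in the same clones. After subtraction of the group means, Pearson's r over the 10 clones was 0.82 for JUNB and PLK3 (Spearman's rho 0.79), 0.43 for JUNB and IER3 (rho 0.37) and 0.27 for IER3 and PLK3 (rho 0.22). These are descriptions over 10 arrays, and each pair of values comes from the same array. Controls 2 and 3 were above and controls 1 and 5 below their mean for both JUNB and PLK3, and CENPU 1 and 4 were above it and CENPU 5 below it for both. IER3 differed in CENPU 1, where it was 0.12 below its group mean while PLK3 was 0.29 above. The control clones of IER3 spanned only 11.53 to 11.65.

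The genes whose group-centred values were most like those of each member were taken from 2964 other protein-coding genes at least as bright as PLK3. JUNB was followed most closely by RHOF, a small GTPase (r = 0.96 over 10 clones), TNIP1, which binds the NF-kB regulator A20 (r = 0.92), KDM4B, a histone demethylase (r = 0.91), and CPTP, a ceramide-1-phosphate transfer protein (r = 0.88). Between the groups RHOF and TNIP1 fell by 0.47 and 0.55 on the log2 scale. KDM4B (0.10) and CPTP (-0.39) did not pass. For IER3 the list was CST4, a cystatin (r = 0.91), the trefoil factor TFF2 (r = 0.88), IRAK2, a kinase of interleukin-1 receptor signalling (r = 0.86), and TFF1 (r = 0.84), and 0 of these 4 passed. For PLK3 it was TBKBP1, an adaptor of the kinase TBK1 (r = 0.98), RABAC1 (r = 0.98), the lysosomal sulfatase SGSH (r = 0.96) and CCDC137 (r = 0.94), of which SGSH fell, by 0.54. These are the highest of 2964 values for each member, over 10 clones, and are given as a description. Over all genes 10.1% passed. With 4 genes for each member, the numbers that passed are not read as a difference between the members.

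All 3 genes are short. JUNB spans 1830 bases, IER3 1349 and PLK3 5614, and each falls in the shortest quintile of 11916 protein-coding genes, which ends at 7857 bases. That quintile had a median of -0.11, on the scale of log2 differences against 0.13 in the longest, and 52 of its genes were higher and 200 lower. Each clone's correlation between span and deviation from the 10-clone mean (Spearman) was -0.16 to 0.36 in CENPU clones and -0.36 to -0.09 in controls. PLK3 was lower where that correlation was higher: the group-centred r over 10 clones was -0.77, against -0.34 for JUNB and 0.10 for IER3. The correlation of a clone is itself made from these protein-coding genes, short ones included. Other short genes were not compared, so -0.77 is not read as particular to PLK3. With a smooth span trend removed from each array, the log2 differences were -0.90 for JUNB, -0.56 for IER3 and -0.49 for PLK3. RNA quality was not measured in these files, and its part in the differences was not tested.

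**Figure D3:**
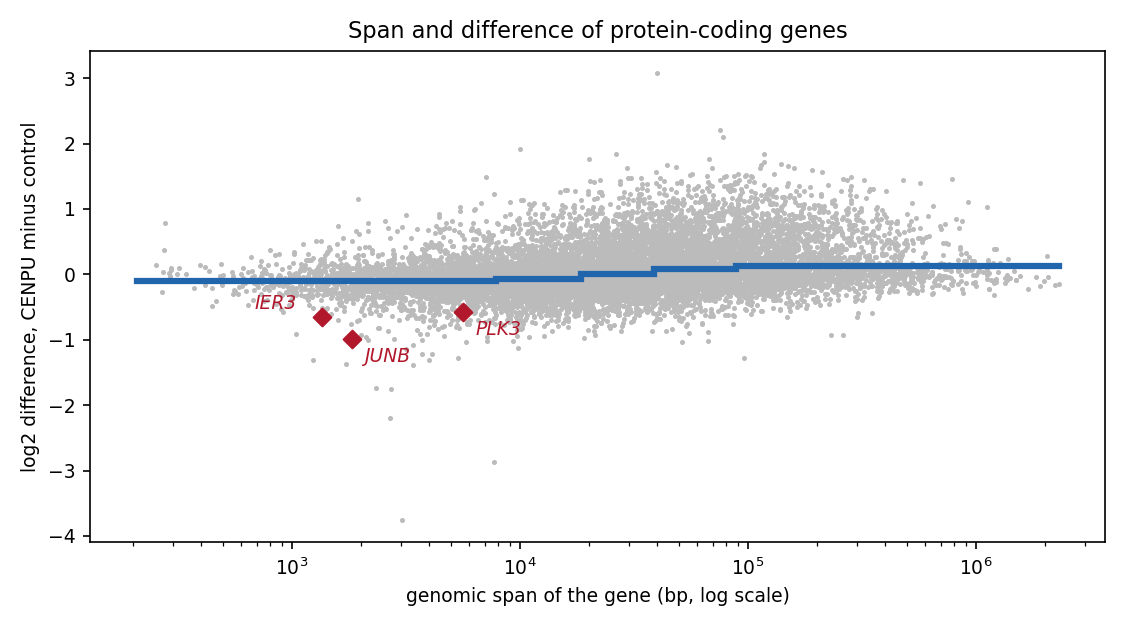
Log2 difference between CENPU and control clones against genomic span (log axis) for 11916 protein-coding genes (grey points); blue bars give the median of each span quintile over its range, and red diamonds mark JUNB, IER3 and PLK3. The 3 members lie at -0.99, -0.66 and -0.58 in the shortest quintile, whose median is -0.11.

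Of the 3 nearest measured genes on each side of each member, 18 in all, 1 fell, 0 rose and 17 did not pass, beside the 10.1% of all genes that passed. Their median was -0.15 on the log2 scale. The gene that fell was TNPO2, a nuclear import receptor near JUNB (-0.39, limma adjusted p = 0.012). HOOK2, which overlaps JUNB by 865 bases, differed by -0.14, and DYNLT4, which overlaps PLK3 by 98 bases, by -0.10, and neither passed. FLOT1, the nearest measured gene before IER3, differed by -0.42 and DDR1, the nearest after it, by -0.29, and neither passed.

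None of the other JUN and FOS genes had a difference as large as that of JUNB, and whether they differ from JUNB was not tested. JUN read 9.23, 8.70, 8.98, 8.78 and 8.67 in CENPU clones 1, 4, 5, 7 and 13, and 8.53, 9.20, 9.03, 8.55 and 8.81 in control clones 1 to 5. The JUN groups overlapped throughout, with means of 8.87 ± 0.24 (SD, n = 5) and 8.82 ± 0.29 (SD, n = 5). JUND had a log2 difference of -0.13, FOS of -0.27, FOSB of -0.15, FOSL1 of -0.24 and FOSL2 of -0.27. Of JUN and these 5 genes 0 passed (limma, adjusted p from 0.147 to 0.879), beside 10.1% of all genes. With so few genes, nothing is read from this count. FOSL1 averaged 11.84 ± 0.38 (SD, n = 5) where CENPU was overexpressed and 12.08 ± 0.14 (SD, n = 5) in controls. FOS was dim, at 5.52 ± 0.19 (SD, n = 5) and 5.79 ± 0.15 (SD, n = 5), and a second row named FOS differed by -0.19.

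Of 12 measured AP-1 subunits other than JUNB, 1 fell, 0 rose and 11 did not pass, so 8.33% passed beside 10.1% of all genes. The one that fell was MAFG, a small MAF protein that forms dimers with NRF2 (-0.43, limma adjusted p = 0.0404), and its call was lost in each fit without 1 clone except those without CENPU 4 or control 1. The count was 0 without CENPU 5, 7 or 13 or control 2, 3, 4 or 5, and 2 without CENPU 4, and without CENPU 1 the 1 member that passed was higher. All genes that passed numbered 613 to 864 in the fits with 0, 1973 without CENPU 4 and 2471 without CENPU 1, against 1504 with all clones. ATF2, which pairs with JUN, had the largest positive difference, 0.67, and did not pass. The list's median on the log2 scale was -0.19, against -0.02 over all named genes, and 9 of the 12 differences were negative.

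Among 13 measured immediate early transcription factors of other families, 0 passed in limma, beside 10.1% of all genes. At an unadjusted p under 0.05 there were 3 of 13, with 1 higher and 2 lower, beside 4147 of all 14884 genes. The median difference was -0.20. EGR1, the zinc finger factor often used as a marker of the immediate early response, differed by -0.03 at a mean of 4.75 in CENPU clones, close to the array median. MYC differed by -0.01, KLF6 by 0.29, KLF2 by -0.28, EGR4 by -0.27 and CSRNP1, an AXIN-induced nuclear protein, by -0.47. Without CENPU 1 there were 2 members that passed, both lower, beside 2471 of all genes. Without CENPU 5 there was 1, higher, beside 864. EGR1 and EGR4 lay near the array medians, which limits what a difference could show there.

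In the list of immediate early feedback and effector genes, DUSP1 and DUSP8 fell, TRIB1 rose, and 22 of 25 measured members did not pass. This 12% lay beside the background of 10.1%, and the list median was -0.05. DUSP1, the phosphatase that switches off p38 and JNK, read 7.76, 7.94, 7.56, 7.63 and 7.503 in CENPU clones 1, 4, 5, 7 and 13, and 8.05, 8.10, 8.51, 8.19 and 8.07 in control clones 1 to 5. Its groups did not overlap (log2 difference -0.51, standard error 0.12, limma adjusted p = 0.0232). DUSP2, a nuclear ERK phosphatase, differed by -0.46 and did not pass. DUSP8, a phosphatase of JNK and p38, fell by 0.46 (limma adjusted p = 0.0309), and TRIB1, a pseudokinase that binds the ubiquitin ligase COP1, rose by 0.50 (limma adjusted p = 0.0426). DUSP1 lost its call without CENPU 5, 7 or 13 or without control 4, and DUSP8 and TRIB1 lost theirs in each of these fits and in others. No member of the list passed without CENPU 5, 7 or 13 or control 4, 1 passed without control 2 or 3, and 5 passed without CENPU 1. All genes that passed numbered 613 to 864 in the first of these fits, 687 and 820 in the next, and 2471 without CENPU 1. IER2 and IER5, relatives of the immediate early response family, had differences of -0.30 and 0.21, and MCL1, a survival protein of the BCL2 family, had -0.30, and IER2, IER5 and MCL1 did not pass.

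**Figure D4:**
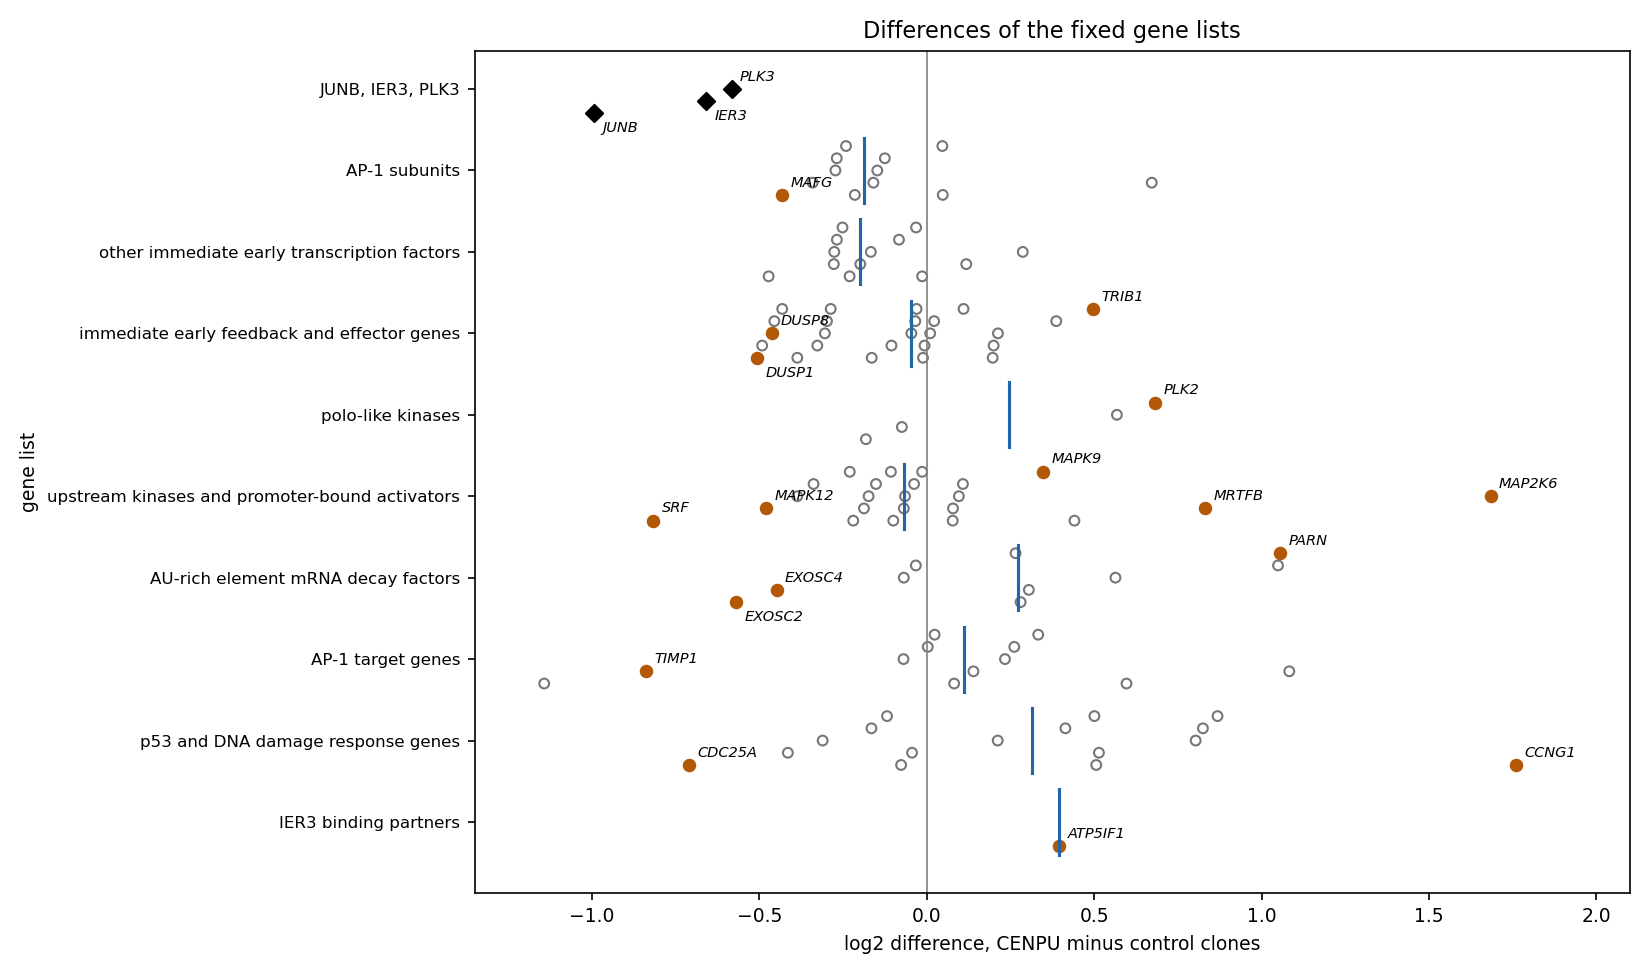
Log2 differences between CENPU and control clones for JUNB, IER3 and PLK3 (black diamonds) and for the 116 measured genes of 9 lists; filled points passed in limma (adjusted p under 0.05), open points did not, and blue bars are list medians. In the first 3 lists 4 of 50 genes are filled, or 8% beside 10.1% of all genes. SRF at -0.82 is the lowest filled point of the upstream activators.

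Upstream of these genes, SRF, the serum response factor that binds CArG boxes in immediate early promoters, fell. Its log2 value was 9.34, 9.50, 9.32, 9.13 and 9.18 in CENPU clones 1, 4, 5, 7 and 13, and 10.02, 10.28, 10.06, 10.14 and 10.06 in control clones 1 to 5. The groups were apart by more than their own spread, with a difference of -0.82 (standard error 0.10, limma adjusted p = 0.0022), and SRF still passed in each fit without 1 clone and in the fit of 7 clones (-0.68). MRTFB, a coactivator of SRF, rose by 0.83 and its relative MRTFA differed by -0.15 and did not pass. MAP2K6, a kinase that activates p38, rose by 1.68, MAPK9, which is the JNK2 kinase, rose by 0.35, and MAPK12, a p38 isoform, fell by 0.48. Of the 23 measured upstream genes 3 rose, 2 fell and 18 did not pass, which is 21.7% passing beside 10.1% over all genes. The list median was -0.07. The count that passed was 1 without control 4, 2 without CENPU 5 or 7 or control 2 or 3, 3 without CENPU 13 or control 5, and 7 without CENPU 1. All genes that passed numbered 613 without control 4, 687 to 864 in the fits with 2, and 801 and 835 in those with 3. Without CENPU 1 they numbered 2471. In the fit of 7 clones the list count was 1, SRF, beside 470 of all genes. RELA and NFKB1 of the NF-kB family, which induces IER3, had differences of -0.22 and 0.08, and neither passed.

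PLK3 and its relative PLK2 differed in opposite directions. PLK2, a stress-responsive kinase of centriole duplication, read 8.22, 7.54, 7.60, 7.44 and 7.34 in CENPU clones 1, 4, 5, 7 and 13, and 7.11, 6.51, 6.88, 7.03 and 7.19 in control clones 1 to 5. It rose by 0.68 (standard error 0.18, limma adjusted p = 0.0331), its groups did not overlap, and the call was lost after quantile normalization and without CENPU 5 or 7 or control 2, 3 or 4. PLK1, the mitotic kinase, differed by -0.07, PLK4, the kinase that starts centriole assembly, by 0.57, and PLK5 by -0.18, and PLK1, PLK4 and PLK5 did not pass. Of the 4 family members other than PLK3, 1 passed, or 25% beside 10.1%, with a median of 0.25 that was 0.02 in the fit of 7 clones. PLK4 was highest in CENPU 13 (5.71) and CENPU 7 (4.99), the clones with the most positive span correlation, and at most 4.62 in the others. CCNG1, ATR and XRN1, described below, were also highest in CENPU 13 (8.24, 6.12 and 7.05) and CENPU 7 (7.84, 5.71 and 6.64).

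**Figure D5:**
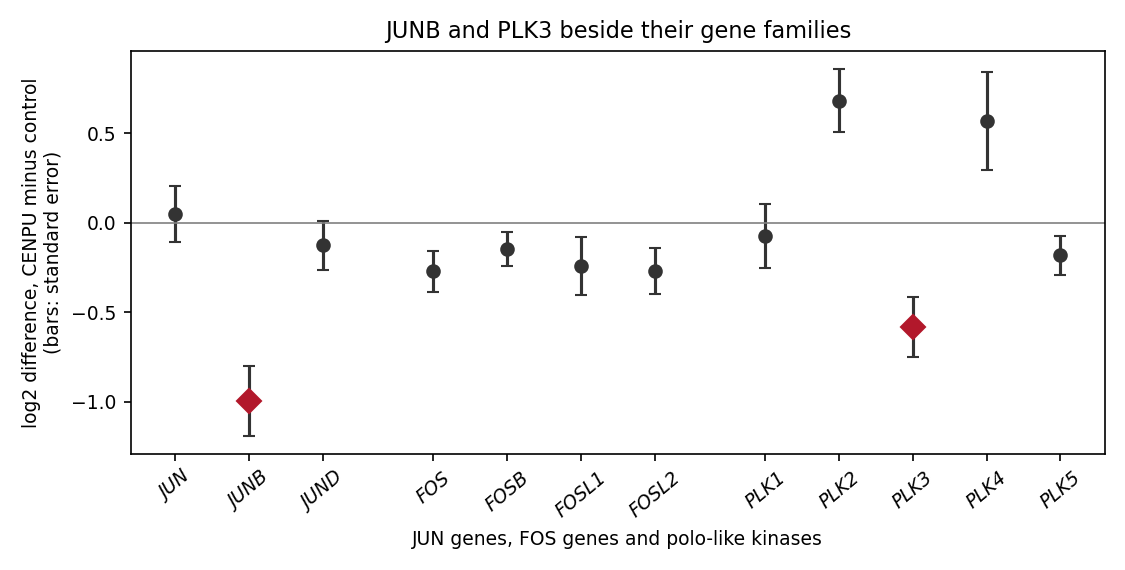
Log2 differences between CENPU and control clones (points) with standard errors (bars) for the JUN genes, the FOS genes and the polo-like kinases, 5 clones in each group; red diamonds mark JUNB and PLK3. JUNB lies at -0.99 while JUN is at 0.05 and JUND at -0.13, and PLK3 lies at -0.58 while PLK2 is at 0.68.

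PLK3 acts on CDC25 phosphatases, and CDC25A was the list member with the smallest p among the p53 and DNA damage response genes. CDC25A fell by 0.71 (standard error 0.07, limma adjusted p = 0.000989), from 8.77 ± 0.04 (SD, n = 5) in controls to 8.06 ± 0.05 (SD, n = 5) in CENPU clones. CDC25B and CDC25C had differences of -0.08 and 0.51 and did not pass. CCNG1, a cyclin induced by p53 in cells that have it, rose by 1.76, and by 1.06 in the fit of 7 clones. The remaining 14 of the 16 measured genes did not pass, so 12.5% passed beside 10.1%. Among these 14 were ATR (0.80), the kinase that senses stalled replication, and TIGAR (0.51), a regulator of glycolysis. PC-3 cells lack functional p53. The list median was 0.31, and 0.02 in the fit of 7 clones. Without CENPU 4 the number that passed was 7, 5 of them higher, and without CENPU 1 it was 5, 4 of them higher. Over all 14884 genes, 1973 passed without CENPU 4 and 2471 without CENPU 1, against 1504 with all clones.

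A list of 24 genes covered the decay or control of mRNAs with AU-rich elements, such as those of JUNB and IER3. Of these genes 10 were measured, and ZFP36 and ELAVL1 were among those not analysed here. PARN, a deadenylase, rose by 1.05 (limma adjusted p = 0.00852), and the exosome subunits EXOSC2 and EXOSC4 fell by 0.57 and 0.45. The other 7 did not pass, among them the exonuclease XRN1 (1.05) and the RNA-binding KHSRP (-0.03), TIA1 (0.27) and TIAL1 (-0.07). Thus 30% passed beside 10.1% of all genes, and the decay of AU-rich mRNAs was not measured. The direction was mixed within the list. Its median was 0.27, and -0.02 in the fit of 7 clones. In that fit 1 member passed, EXOSC2 (-0.75), beside 470 of all genes, and PARN (0.79) did not. Without CENPU 4 there were 3 higher and 2 lower, beside 1973 of all genes. Of 12 measured target genes of AP-1, TIMP1, a metalloproteinase inhibitor, fell by 0.84 (limma adjusted p = 0.0117) and 11 did not pass, or 8.33% beside 10.1%, among them the chemokine CXCL8 (-1.14), the collagenase MMP13 (1.08), the heme oxygenase HMOX1 (0.33), and CCND1 (0.14), CCNA2 (0.60) and CDKN2A (0.08), which JUNB is known to regulate. The list median was 0.11, and 2 members passed without CENPU 1 or CENPU 7, beside 2471 and 688 of all genes. Of 6 listed partners of IER3, ATP5IF1, the inhibitor of the mitochondrial ATP synthase, was the only one measured. It rose by 0.40 (limma adjusted p = 0.0255), and it did not pass in the fit of 7 clones (0.29) or without CENPU 7 or 13 or control 2, 3, 4 or 5.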

How the data were processed

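The data were 1-channel Affymetrix arrays of total RNA from 10 clones, in 1 table of log2 expression values deposited by the authors. Partek and RMA were used, per the submitters' processing notes, with no version stated. That the deposited values are log2 is an inference from their range. RMA equalises arrays, so a shift shared by most genes would not be seen, and background in dim rows shrinks their differences. Arrays have no total count, and the number of clones limits the precision. No label says whether RNA of the clones was prepared separately, so p-values measure only the spread between these clones.

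A platform table named 16098 rows, all matched by gene ID to RefSeq (GRCh38.p14), for 14884 genes, and the brightest row stood for a gene. limma (version 3.58.1, R 4.3.3) was fitted to all named rows with lmFit and eBayes, with Benjamini-Hochberg adjustment over them. The fit was tested on simulated data. The members, 9 lists of 200 genes (116 measured), markers and alternatives were chosen with earlier results of these data known. From the lists, each gene that passed was named, up to 4 by smallest p where fewer did, and all JUN, FOS and polo-like kinase genes. Other list genes were named after their values were seen. The neighbouring genes, the rows of IER3 and the comparison of members with the span trend were also taken up after the data were examined. Alternatives covered normalization, filtering, the rows tested, the row per gene, the variance model, a block by clone number, the span trend and leaving out clones. Motifs were searched in RefSeq promoter entries.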

Additional observations from a re-analysis of the deposited data

Results flagged for a closer look

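Chance flags about 1 in 20 groups of 5 clones by the distance of the highest or lowest clone to the others, and 3 of the 58 groups examined (29 genes in each of both groups of clones) were set apart in this way. PLK2 read 8.22 in CENPU 1, against 7.34 to 7.60 in the other CENPU clones. FOSL1 read 11.2 in CENPU 5, against 11.9 to 12.1 in the other CENPU clones, and JUNB and IER3 were also lowest in that clone. EXOSC4 read 10.2 in control 2, against 9.60 to 9.67 in the other controls.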

How the results depend on the processing

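The log2 differences of JUNB, IER3 and PLK3 stayed negative under all 19 alternatives. Leaving out each clone in turn gave -1.12 to -0.87 for JUNB, -0.70 to -0.61 for IER3 and -0.67 to -0.51 for PLK3. IER3 was -0.37 as the mean of its 11 rows. The call of PLK3 was lost with all rows tested, with trend and robust variance and with the span trend removed. It was also lost without CENPU 5, 7 or 13 or control 2, 3, 4 or 5. With control 2, CENPU 7 and CENPU 13 left out together, JUNB and PLK3 did not pass and IER3 did. The clone numbers 1, 4 and 5 occur in both groups, and deviations of same-numbered clones correlated at -0.37, 0.10 and 0.02. No label pairs the clones, and these few values cannot tell whether same-numbered clones were handled together. With clone number as a replicate block, only numbers 1, 4 and 5, which occur in both groups, inform the difference. In that fit PLK3 was -0.28, 55 of all genes passed in place of 1504, and 0 passed in each list. JUNB, IER3 and PLK3 did not pass in it either. Fewer residual degrees of freedom were also left.

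The number of genes that passed was 470 without control 2, CENPU 7 and CENPU 13 together, and 613 to 2471 without 1 clone. In that fit of 7 clones, 0 AP-1 subunits, 1 feedback and effector gene, 1 upstream activator, 1 mRNA decay factor and 0 partners of IER3 passed. The AP-1 subunit count of 1 became 0 after median centring, with all rows tested, with trend and robust variance and with the span trend removed. In these fits 1343, 1161, 1353 and 1462 of all genes passed, in that order, against 1504 in the main fit. After quantile normalization, 0 polo-like kinases other than PLK3 and 2 AP-1 targets passed, beside 1706 of all genes. Without 1 clone, the counts ran from 0 to 2 for AP-1 subunits and for other transcription factors, 0 to 5 for feedback and effector genes, 0 to 1 for polo-like kinases, 1 to 7 for upstream activators, 2 to 5 for decay factors, 1 to 2 for AP-1 targets, 2 to 7 for p53 and damage genes and 0 to 1 for IER3 partners. The cause of these changes was not tested. Signal close to the array medians of 4.62 to 4.76 limits EGR1, EGR4, PLK4, ATR and TIA1. Their means over all clones were 4.76, 4.71, 4.41, 4.82 and 4.64. FOS, at a mean of 5.65, was dim but above the medians.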
